A study of Mus musculus with 24 samples.

Results

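The zinc response of the scrambled control (scr) line was measured in 4 RNA-seq libraries of the 24 in the series, 2 libraries of cells given 50 µM ZnSO4 and 2 of cells given no metal. The titles decided which libraries these were, since the labels' treatment tag disagrees with the titles and with the column names. The cells were mouse myoblasts, the dividing precursors of muscle fibres. They are C2C12 cells, an established line, in the study's methods, while the labels name primary myoblasts. All scr cells carried an shRNA with a scrambled sequence, so the untreated cells shared this handling with the treated ones. The methods describe a lentiviral shRNA and a selected population, whereas the labels describe Lipofectamine-mediated knockdown. A further 2 scr libraries, from cells given 100 µM CuSO4, added to the estimate of the spread and served for a direct comparison of the metals. The other 18 libraries came from lines with a knockdown (KD) of *Baf180*, *Baf250a* or *Brd9*, which encode subunits of SWI/SNF chromatin remodelling complexes, under the same 3 conditions with 2 libraries each. The methods state 2 independent biological replicates per condition.

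Zinc is a structural or catalytic part of many proteins and is harmful in excess, so cells hold free zinc low. The zinc finger transcription factor MTF1 senses the metal and binds metal response elements (MREs), short DNA sequences upstream of its targets. Its known targets include the metallothioneins *Mt1* and *Mt2*, which encode small cysteine-rich proteins that bind zinc and copper, and *Slc30a1*, which encodes the zinc exporter ZnT1 of the plasma membrane. MTF1 is also known to repress *Slc39a10*, which encodes the zinc importer ZIP10.

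The promoter windows of *Mt1*, *Mt2* and *Slc30a1* are shown because these transcripts rose under Zn and are textbook MTF1 targets. The sequences are RefSeq windows of GRCm38.p6 (mm10) from 250 bases before to 50 after the annotated start. Capitals mark matches to the MRE core, searched as TGCACNC and TGCGCNC on both strands. The *Mt1* window lies at chr8:94178839-94179138, the *Mt2* window at chr8:94172368-94172667 and the *Slc30a1* window at chr1:191906531-191906830, all on the + strand.
Mt1: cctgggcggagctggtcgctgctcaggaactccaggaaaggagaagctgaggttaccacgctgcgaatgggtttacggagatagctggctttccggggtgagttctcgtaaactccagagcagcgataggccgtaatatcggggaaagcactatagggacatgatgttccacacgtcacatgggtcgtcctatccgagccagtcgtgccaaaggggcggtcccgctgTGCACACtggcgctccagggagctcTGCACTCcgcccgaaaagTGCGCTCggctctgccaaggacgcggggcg
Mt2: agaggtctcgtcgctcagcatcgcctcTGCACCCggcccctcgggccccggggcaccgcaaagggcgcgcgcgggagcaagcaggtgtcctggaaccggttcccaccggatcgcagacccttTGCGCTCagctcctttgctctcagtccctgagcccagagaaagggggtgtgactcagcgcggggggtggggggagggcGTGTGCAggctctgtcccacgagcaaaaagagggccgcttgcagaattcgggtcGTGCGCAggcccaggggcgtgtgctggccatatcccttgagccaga
Slc30a1: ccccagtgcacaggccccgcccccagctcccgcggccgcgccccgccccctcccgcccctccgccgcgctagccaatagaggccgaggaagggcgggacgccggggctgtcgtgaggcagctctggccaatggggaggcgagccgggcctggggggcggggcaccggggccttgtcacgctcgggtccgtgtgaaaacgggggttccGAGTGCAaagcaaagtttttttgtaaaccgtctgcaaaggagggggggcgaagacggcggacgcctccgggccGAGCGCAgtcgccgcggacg
The *Mt1* window held 3 matches, the *Mt2* window 4 and the *Slc30a1* window 2. The matches of *Mt1* began 23 bases before, 2 after and 20 after the start, and those of *Slc30a1* began 43 bases before and 30 after it. At least 1 match was found in 25.7% of all 32851 windows, at least 2 in 7.11%, at least 3 in 1.97% and at least 4 in 0.517%. Both windows of *Slc39a10* and the window of *Mtf1* held 0 matches, which says only that these letters were not in these windows.

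Library properties differed between the groups. Total counts were 16520069 and 23054964 in the untreated libraries and 26392995 and 75179394 in the Zn libraries, against a range of 495778 to 75179394 over all 24. For a GC trend, log2 expression was taken relative to the mean of the 6 scr libraries. Per 10 percentage points of transcript GC content it changed by 0.122 and 0.372 in the untreated libraries. The change was -0.257 and -0.325 in the Zn libraries and 0.175 and -0.0876 in the Cu libraries. Features of residual ribosomal RNA summed to 49296 and 17263 CPM (counts relative to library size, with edgeR's TMM factors over the 6 scr libraries) without metal, to 1226 and 1209 CPM with Zn and to 1508 and 1825 CPM with Cu, so the untreated libraries stood apart. Zinc treatment and these properties cannot be told apart. A second fit removed, within each library, a smooth trend on GC content and transcript length, and both values are given below. It did not model residual ribosomal RNA, and it would also remove a zinc effect that follows GC content or length. Neither fit therefore separates zinc from the library properties. A gene is said to rise or fall where the uncorrected test passed, and the corrected value stands beside it. Myoblast genes were abundant, with 4370 and 4721 CPM over 15 markers without metal and 3721 and 3557 CPM with Zn. *Pax7*, a satellite cell factor, had 24 and 34 counts without metal (1.49 and 1.49 CPM) and 36 and 128 with Zn (1.35 and 1.66 CPM). Markers of fibroblasts summed to between 29.8 and 35.2 CPM, those of endothelial and immune cells to between 9.50 and 10.9 CPM, and those of adipocytes to 0.248 CPM at most, with *Ptprc* and *Adgre1* listed at 0. In bulk RNA, fewer cells of a type and less RNA per cell cannot be told apart.

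*Mt2* and *Mt1* rose most clearly under Zn, *Slc30a1* rose and *Slc39a10* fell. *Mt2* was at 17.7 and 19.6 CPM in the untreated libraries and at 200 and 195 CPM in the Zn libraries. Its log2 fold change was 3.40 (SE 0.11, adjusted p = 3.75e-05, edgeR) and 3.91 after the correction (adjusted p = 1.38e-06). *Mt1* was at 53.6 and 61.5 CPM without metal and at 316 and 291 CPM with Zn. Both metallothioneins were far above the spread between libraries, and the groups did not overlap. The log2 fold change of *Mt1* was 2.40 (SE 0.16, adjusted p = 0.0032) and 2.70 after the correction (adjusted p = 8.15e-05). Without untreated replicate 2, the uncorrected call of *Mt1* was lost at a log2 fold change of 2.49 (adjusted p = 0.0637), and that of *Mt2* held (adjusted p = 0.0020). *Mt2* was past the threshold in all 29 alternative fits and *Mt1* in 28 of them. *Mt4* had no count in these 4 libraries and *Mt3* had a count in 1 Zn library.

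The transporters moved in opposite directions. *Slc30a1* was at 10.5 and 10.7 CPM without metal and at 30.3 and 27.7 CPM with Zn. Its log2 fold change was 1.44 (SE 0.11, adjusted p = 0.0056), and 1.29 after the correction (adjusted p = 0.0061). *Slc39a10* was at 37.7 and 31.7 CPM without metal and at 18.9 and 18.8 CPM with Zn, with no overlap. It fell by 0.88 on the log2 scale (SE 0.12, adjusted p = 0.0275), and by 1.18 after the correction (adjusted p = 0.0061). *Mtf1* itself was at 49.4 and 46.1 CPM without metal and at 47.7 and 42.8 CPM with Zn, and its groups overlapped (log2 fold change -0.08, SE 0.10, adjusted p = 0.596). These 2 transporter calls rested on the full set of libraries. *Slc30a1* lost its call without untreated replicate 2 (adjusted p = 0.1), Zn replicate 1 (adjusted p = 0.0729) or Zn replicate 2 (adjusted p = 0.0508), at log2 fold changes of 1.45, 1.38 and 1.51. *Slc39a10* lost its call without the same libraries (adjusted p = 0.137, 0.128 and 0.192), at -1.01, -0.88 and -0.88.

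**Figure D1:**
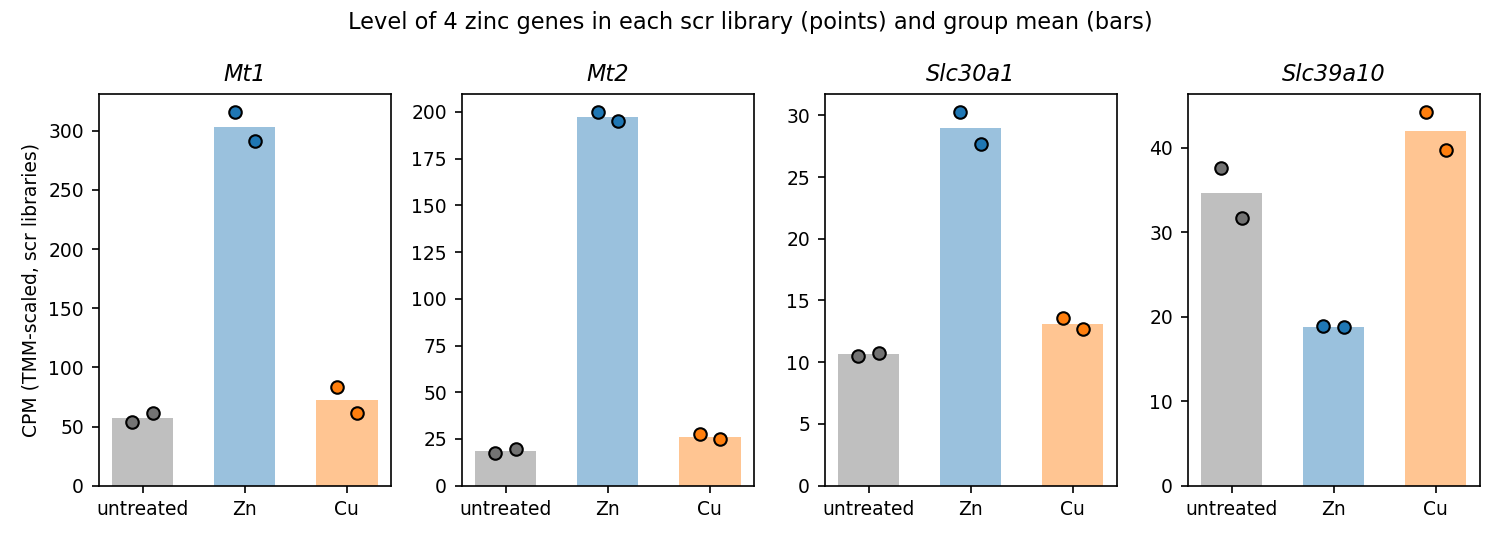
Level of *Mt1*, *Mt2*, *Slc30a1* and *Slc39a10* in CPM (y axis, linear, from 0) in untreated, Zn and Cu libraries of the scr line; points are libraries and bars are means of 2. The Zn libraries lie above the untreated and Cu libraries for *Mt1*, *Mt2* and *Slc30a1* and below them for *Slc39a10*.

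These 4 genes also separated the metals. In the direct comparison of Zn with Cu libraries, 4 of 15002 genes (0.0267%) were called, and they were these 4. *Mt2* was at 27.6 and 24.8 CPM with Cu and *Mt1* at 83.2 and 61.0 CPM. The Zn libraries were higher than the Cu libraries by 2.92 for *Mt2* (SE 0.10, adjusted p = 1.08e-04), by 2.08 for *Mt1* (SE 0.15, adjusted p = 0.012) and by 1.14 for *Slc30a1* (SE 0.11, adjusted p = 0.0462) on the log2 scale. *Slc39a10* was at 44.2 and 39.8 CPM with Cu, and the difference of Zn from Cu was -1.16 (SE 0.12, adjusted p = 0.0492). After the correction, 13 of 14864 genes (0.0875%) were called between the metals. The Zn and Cu doses differ, so a difference between the metals is also one between doses.

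Among the other zinc transporters, 2 exporters and 2 importers were called before the correction and none of these 4 after it. Of 6 *Slc30* genes tested 3 rose and none fell, and of 10 *Slc39* genes tested 3 fell and none rose, where 10.5% of all genes rose and 7.13% fell. *Slc30a4*, a vesicular exporter, was at 224 and 152 CPM without metal and at 365 and 382 CPM with Zn (log2 fold change 0.99, corrected 0.36, corrected adjusted p = 0.0856). *Slc30a7*, an exporter of the Golgi, was at 47.6 and 43.3 CPM against 59.8 and 58.2 CPM, and its log2 fold change of 0.38 became -0.10 after the correction. *Slc39a7*, which releases zinc from the endoplasmic reticulum, was at 40.6 and 46.1 CPM without metal and at 24.3 and 22.7 CPM with Zn (log2 fold change -0.89, corrected -0.58, corrected adjusted p = 0.063). *Slc39a11* was at 10.5 and 12.2 CPM against 6.97 and 7.71 CPM (log2 fold change -0.63, corrected -0.35, corrected adjusted p = 0.151). The median log2 fold change over the exporters was 0.30 and became -0.02, and that over the importers was -0.24 and became -0.05.

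The KD lines, each with its own untreated libraries, gave the same direction for the same 4 genes. *Mt2* responded by 1.71 in *Baf180* KD, 1.10 in *Baf250a* KD and 2.12 in *Brd9* KD cells on the log2 scale, against 3.40 in scr. *Mt1* responded by 1.28, 1.03 and 1.56, of which the value in *Baf180* KD was not called (adjusted p = 0.0646). *Slc30a1* responded by 1.02, 0.77 and 0.99, and *Slc39a10* by -1.28, -1.06 and -1.27, all called. Scaled over all 24 libraries, *Slc30a1* in *Baf250a* KD was at 25.5 and 29.4 CPM untreated and at 49.4 and 25.3 CPM with Zn. These groups overlapped, so this rise rested on Zn replicate 1. The untreated level of *Mt2* was higher in the KD lines. In a scaling over all 24 libraries, *Mt2* had means of 19.5 ± 1.83 CPM in untreated scr, 103 ± 9.78 in *Baf180* KD, 108 ± 2.20 in *Baf250a* KD and 62.5 ± 5.15 in *Brd9* KD cells (SD, n = 2). With Zn these became 194 ± 5.05, 342 ± 48.3, 247 ± 49.2 and 273 ± 22.7 CPM. The smaller log2 responses of *Mt2* in the KD lines thus came with higher levels in both conditions.

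**Figure D2:**
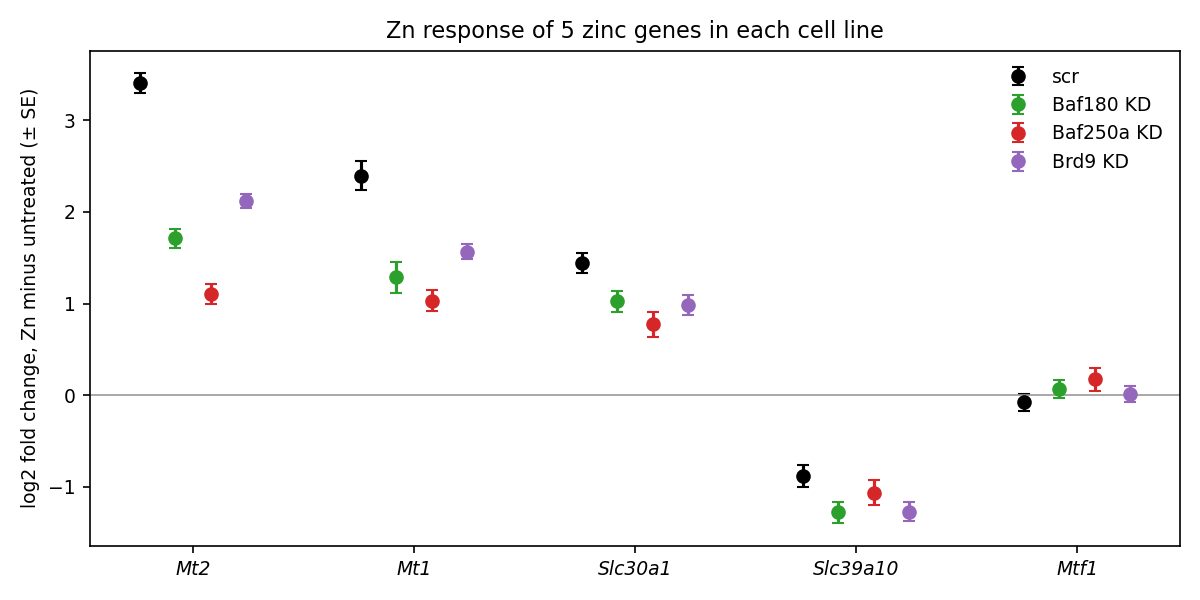
Log2 fold change of Zn over untreated (y axis) for 5 zinc genes in the scr and the 3 KD lines; points are edgeR estimates from the 6 libraries of a line and bars are SE. *Mt2* is at 3.40 in scr and between 1.10 and 2.12 in the KD lines, while *Slc39a10* lies between -1.28 and -0.88.

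The difference between lines was tested in a fit of all 24 libraries. The *Mt2* response was larger in scr by 1.58 than in *Baf180* KD (adjusted p = 1.81e-04), by 2.18 than in *Baf250a* KD (adjusted p = 1.65e-06) and by 1.19 than in *Brd9* KD cells (adjusted p = 0.0184). The *Mt1* response was larger in scr by 1.01 (adjusted p = 0.0049) and 1.29 (adjusted p = 9.12e-04) than in *Baf180* and *Baf250a* KD, and the difference from *Brd9* KD was 0.73 (adjusted p = 0.0549). For *Slc30a1* the difference from *Baf250a* KD was 0.63 (adjusted p = 0.0278) and 0.40 after the correction (adjusted p = 0.178). For *Slc39a10* no difference was called, and the 95% intervals were -0.03 to 0.61, -0.26 to 0.45 and -0.02 to 0.61 for *Baf180*, *Baf250a* and *Brd9* KD. Such differences were called for 28.7%, 30.5% and 11.1% of 16524 genes in the 3 lines, and for 1119 (6.85%), 2568 (15.7%) and 7 (0.0428%) of 16342 genes with the correction. The other transporters also differed before it, *Slc30a4*, *Slc39a7* and *Slc39a11* in all 3 lines and *Slc30a7* in *Baf180* and *Baf250a* KD. Replicate 2 of *Baf250a* KD with Zn had 495778 counts, and without it the *Mt2* difference was 2.33, the *Mt1* difference 1.41 and the *Slc30a1* difference 0.50 (adjusted p = 0.0395).

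Across all genes, 2645 of 15002 (17.6%) were called without the correction, 1576 higher (10.5%) and 1069 lower (7.13%). Once GC content and length were corrected for, 47 of 14864 (0.316%) were called, 25 higher (0.168%) and 22 lower (0.148%). The uncorrected fold change fell with GC content, with a Spearman correlation of -0.69 across 14864 genes, which are not independent replicates, and 0.018 after the correction. Its correlation with transcript length was 0.24 and became -0.055. In transcripts of 35 to 40% GC the median log2 fold change was 1.02, and 434 of 963 genes were called higher and 5 lower. In those of 55 to 60% GC the median was -0.25, and 2 of 2706 were called higher and 447 lower. After the correction these medians were 0.06 and 0.05. The count of calls also rested on single libraries. It was 2572 without untreated replicate 1, 8 without untreated replicate 2, 7 without Zn replicate 1 and 5 without Zn replicate 2, where a group had 1 library assumed to vary like the others. It was 4327 and 4208 without Cu replicate 1 or 2.

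**Figure D3:**
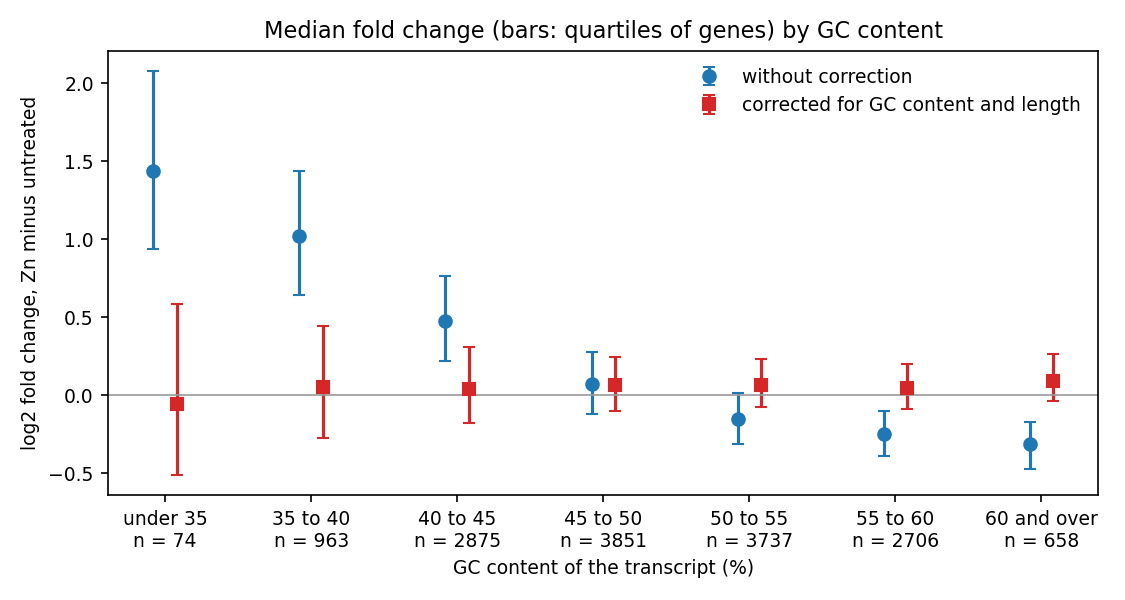
Median log2 fold change of Zn over untreated (y axis) in 7 classes of transcript GC content (x axis, percent, with the number of genes); bars run from the lower to the upper quartile of genes. The uncorrected medians fall from 1.44 under 35% GC to -0.31 at 60% and over, and the corrected medians lie between -0.05 and 0.10.

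Called in the same direction in both fits were 32 of 14864 genes (0.215%), 15 higher and 17 lower. Of these, 24 were protein-coding, with 12 higher and 12 lower, and in all 24 the Zn and untreated libraries did not overlap. Over all genes tested, 70.5% did not overlap, 35.3% higher and 35.2% lower with Zn. Most of these calls rested on the full set of libraries. Without untreated replicate 2, Zn replicate 1 or Zn replicate 2, 20 of the 24 were called in none of the 3 uncorrected fits, the exceptions being *Mt1*, *Mt2*, *Lars2* and *Gm10800*, and 19 in none of the 3 corrected ones, where *Gm10801* was called too. Without untreated replicate 1, 20 were called uncorrected and 7 corrected. Beside the zinc genes, the risers had varied known functions. *Ccne2*, which encodes cyclin E2 of S phase entry, was at 13.1 and 9.96 CPM without metal and at 39.7 and 43.2 CPM with Zn. Its log2 fold change of 1.86 became 0.64 after the correction (adjusted p = 0.0412), and Cu replicate 2 was at 27.5 CPM. *Cks2*, a partner of the cyclin-dependent kinases, was at 13.6 and 11.3 CPM against 22.9 and 22.7 CPM, and its log2 fold change was 0.88 and 0.83 corrected. *Sirt1*, an NAD-dependent deacetylase, was at 21.6 and 15.4 CPM against 40.3 and 40.9 CPM (1.14, corrected 0.83).

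*Nxf3*, of the mRNA export factor family, was at 11.8 and 9.04 CPM without metal and at 23.1 and 25.7 CPM with Zn (1.24, corrected 0.77). *Cnep1r1*, the regulatory partner of a nuclear envelope phosphatase, was at 18.0 and 16.7 CPM against 33.2 and 35.6 CPM (0.99, corrected 0.79). *Tmed7*, a cargo receptor between endoplasmic reticulum and Golgi, was at 101 and 94.2 CPM against 156 and 151 CPM (0.66, corrected 0.90). In all 3 the Cu libraries lay between the untreated and the Zn libraries. *Rwdd1* was at 31.2 and 31.5 CPM against 42.2 and 43.5 CPM (0.45, corrected 0.54). *Egr1*, an immediate early transcription factor, was at 25.3 and 24.6 CPM without metal, at 39.4 and 44.5 CPM with Zn and at 42.5 and 34.5 CPM with Cu (0.75, corrected 1.00). *Sgk1*, a kinase induced by serum and glucocorticoids, was at 125 and 130 CPM without metal, at 168 and 165 CPM with Zn and at 167 and 156 CPM with Cu (0.38, corrected 0.46). For *Egr1* and *Sgk1* the Cu libraries overlapped the Zn libraries, and the Zn and Cu libraries were not called different (adjusted p = 0.558 and 0.764).

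The 12 that fell included *Slc39a10*. *Tagln*, which encodes the actin-binding protein transgelin, was at 187 and 205 CPM without metal and at 115 and 111 CPM with Zn (-0.80, corrected -0.54, adjusted p = 0.0181). *Alyref*, an mRNA export adaptor, was at 197 and 223 CPM against 145 and 142 CPM (-0.55, corrected -0.59). *Cdc37*, an Hsp90 cochaperone for kinases, was at 209 and 231 CPM against 155 and 145 CPM (-0.55, corrected -0.51). The Cu libraries lay above the Zn libraries for all 3. *Vapb*, of endoplasmic reticulum contact sites, was at 145 and 148 CPM against 107 and 107 CPM (-0.45, corrected -0.43). *Gtf2h5*, a subunit of the repair and transcription factor TFIIH, was at 48.7 and 54.6 CPM against 38.3 and 38.1 CPM (-0.44, corrected -0.86). *Ciao1*, of cytosolic iron-sulfur protein assembly, was at 40.9 and 42.9 CPM against 31.7 and 32.4 CPM (-0.39, corrected -0.58). Before the correction the decreases of these 3 genes were smaller than those of *Tagln*, *Alyref* and *Cdc37*. After it that of *Gtf2h5* was larger than all 3, and that of *Ciao1* was larger than those of *Tagln* and *Cdc37*. *Rpl5*, of the large ribosomal subunit, was at 142 and 149 CPM against 110 and 114 CPM (-0.38, corrected -0.78). *Rbm3*, a cold-induced RNA-binding protein, was at 208 and 211 CPM against 172 and 175 CPM (-0.28, corrected -0.82).

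The remaining 3 fallers moved with the ribosomal RNA features of the untreated libraries. *Lars2*, on the list of residual ribosomal RNA, was at 1345 and 616 CPM without metal, at 25.1 and 31.3 CPM with Zn and at 33.4 and 29.6 CPM with Cu. *Gm10800* was at 45.7 and 6.98 CPM without metal and at 0.45 and 0.286 CPM with Zn. *Gm10801* was at 8.92 and 1.45 CPM against 0.112 and 0.117 CPM. The Cu libraries were as low as the Zn libraries for all 3, and the untreated replicates differed most from each other for *Gm10800* and *Gm10801*. Reads that align to several copies were discarded, so counts of repeated sequences are uncertain. Of 7 residual ribosomal RNA features tested 7 were lower with Zn before the correction and 5 after it. *CT010467.1*, annotated as ribosomal RNA, was at 46805 and 16301 CPM without metal, at 1159 and 1118 CPM with Zn and at 1415 and 1759.7 CPM with Cu. Without Zn replicate 1 or 2 its call was lost (adjusted p = 0.114 and 0.119). *Mir6236* was at 63.6 and 55.9 CPM without metal and at 0.075 and 0.065 CPM with Zn, and *Gm15564* at 120 and 64.1 CPM against 0.15 and 0.611 CPM. *Gm24187* was at 255 and 59.4 CPM against 0.187 and 0.351 CPM. The mitochondrial ribosomal RNAs *mt-Rnr1* and *mt-Rnr2* were at 416 and 337 CPM in untreated replicate 1, at 97.4 and 83.5 CPM in untreated replicate 2 and between 14.2 and 39.3 CPM with Zn. In all 5 the Cu libraries lay below the untreated ones. *Rny1* and *Rny3*, small Y RNAs, were at 73.6 and 78.8 CPM in untreated replicate 1, at 365 and 351 CPM in untreated replicate 2 and between 26.8 and 31.5 CPM with Zn. The part of rRNA removal in these differences was not tested.

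**Figure D4:**
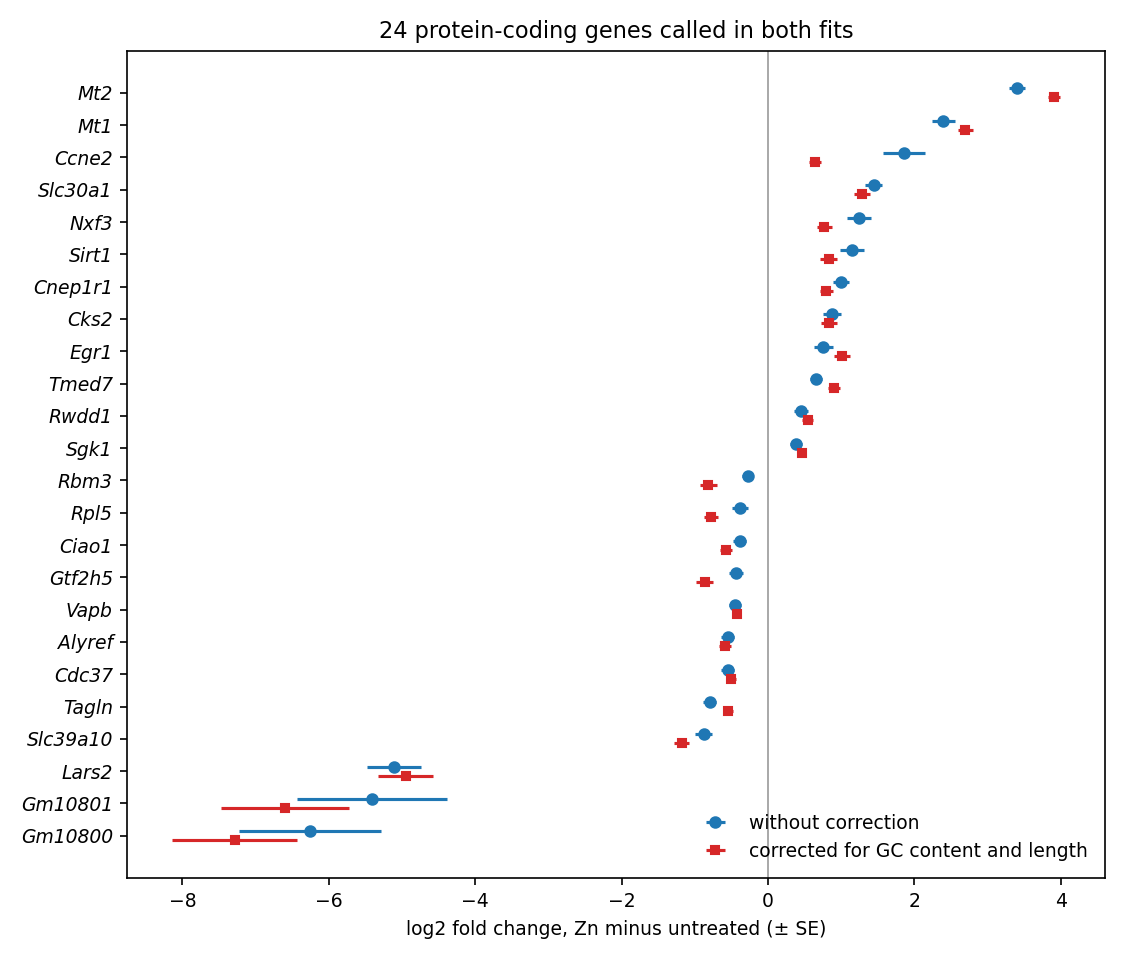
Log2 fold change of Zn over untreated (x axis) for the 24 protein-coding genes called in both fits, with (squares) and without (circles) correction for GC and length; bars are SE. *Mt2* and *Mt1* stand at the top at 3.40 and 2.40, and *Lars2*, *Gm10801* and *Gm10800* stand apart at the bottom between -7.29 and -4.95.

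The direction of the 24 responses differed in part in the KD lines. Before the correction it was that of scr for 8 of 24 genes in *Baf180* KD, for 6 of 23 with a value in *Baf250a* KD and for 18 of 23 in *Brd9* KD cells. After it the direction was that of scr for 7, 7 and 17 genes. The calls that follow are without the correction. In *Baf180* KD, 3 of 15241 genes (0.0197%) were called, and they were *Mt2*, *Slc30a1* and *Slc39a10*. In *Brd9* KD, 5 of 14978 (0.0334%) were called, and they were *Mt1*, *Mt2*, *Slc30a1*, *Slc39a10* and *Egr1*. In *Baf250a* KD, 2334 of 14706 (15.9%) were called, and 4 of the 24 were called in the direction of scr, namely *Mt1*, *Mt2*, *Slc30a1* and *Slc39a10*. With the library of 495778 counts among its Zn libraries, another 10 of the 24 were called there in the direction opposite to scr. *Alyref* was one of them, with a log2 fold change of 1.08 against -0.55 in scr, and *Cnep1r1* another, with -0.72 against 0.99. The others were *Nxf3*, *Tmed7*, *Rbm3*, *Rpl5*, *Gtf2h5*, *Vapb*, *Cdc37* and *Tagln*.

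Of the matrix and adhesion genes, *Postn* and *Spp1* rose, and both missed the corrected threshold. *Postn*, which encodes the matricellular protein periostin, was at 132 and 91.6 CPM without metal, at 263 and 273 CPM with Zn and at 108 and 154 CPM with Cu. Its log2 fold change was 1.26 (adjusted p = 0.0275) and 1.00 after the correction (adjusted p = 0.0518). *Spp1*, which encodes osteopontin, was at 355 and 260 CPM against 577 and 604 CPM (0.94, corrected 0.63, corrected adjusted p = 0.0549). Of 35 matrix and adhesion genes tested, 3 rose (8.57%) and 2 fell (5.71%), against 10.5% and 7.13% of all genes, with a median of -0.04 (corrected 0.06). Of 25 collagen genes none rose and 2 fell, among them *Col1a1* at 42.4 and 41.7 CPM against 31.8 and 32.0 CPM, and the median of -0.27 became -0.01. Over all genes tested the median was -0.01 and 0.06 after the correction.

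G2 and mitosis genes were higher on balance, and their median held after the correction. Of 54 G2 and mitosis genes tested 22 rose (40.7%) and 1 fell, against 10.5% and 7.13% of all genes. Their median log2 fold change was 0.24 and 0.22 after the correction, where *Cks2* alone was called. Of the 54, 39 were above 0 before the correction and 48 after it. Among all genes tested these numbers were 7420 of 15002 and 8923 of 14864. *Ect2*, a regulator of cytokinesis, was at 83.5 and 68.3 CPM without metal and at 128 and 126 CPM with Zn, and its log2 fold change of 0.75 became 0.02. *Rangap1*, of the Ran cycle, fell by 0.44 (corrected -0.16). Of 45 S phase genes 8 rose and 3 fell, with a median of 0.01 (corrected 0.08). *Hells*, a chromatin remodeller of replicating cells, was at 42.2 and 27.9 CPM against 86.6 and 97.1 CPM, and its log2 fold change of 1.40 became 0.31 (corrected adjusted p = 0.166). *Fen1*, a flap endonuclease of DNA replication, fell by 0.40 (corrected -0.13). Of 56 replication-dependent histone genes tested none rose and 1 fell. The correction is void for this list, since 28 of the 56 had a value for GC content, and among those 28 the corrected fit called 4 higher and none lower, with a median of 0.43.

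The mitochondrial transcripts moved in opposite directions by genome before the correction. Of 10 transcripts of the mitochondrial genome tested 7 rose and none fell, with a median log2 fold change of 1.37, against 10.5% and 7.13% of all genes, and after the correction none was called and the median was 0.23. *mt-Nd4*, a complex I subunit, was at 397 and 370 CPM without metal, at 1050.1 and 1119 CPM with Zn and at 602 and 478 CPM with Cu (1.5, corrected 0.20). *mt-Cytb*, of complex III, was at 1542 and 1425 CPM against 3645 and 3941 CPM (1.35, corrected 0.56). All features of the mitochondrial genome, its ribosomal and transfer RNAs included, held between 0.856 and 0.991% of the counts without metal. They held 2.05 and 2.13% with Zn and 1.40 and 1.10% with Cu. Of 79 nuclear oxidative phosphorylation genes 2 rose and 26 fell, with a median of -0.32 (corrected -0.09, none called). *Ndufa13*, of complex I, was at 43.0 and 52.3 CPM against 25.4 and 25.3 CPM (-0.91, corrected -0.52, corrected adjusted p = 0.0769). *Uqcrb*, of complex III, was at 20.1 and 16.0 CPM against 32.3 and 33.5 CPM (0.87, corrected 0.63, corrected adjusted p = 0.0623). Of 77 mitochondrial ribosome genes 3 rose and 18 fell, with a median of -0.21 (corrected -0.03).

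Cytosolic ribosome and glycolysis genes were lower before the correction. Of 79 ribosomal protein genes 1 rose and 29 fell (36.7%), against 10.5% and 7.13% of all genes, with a median log2 fold change of -0.35, and after the correction 1 rose and 1 fell and the median was -0.10. *Rpl39*, of the large subunit, was at 192 and 205 CPM without metal and at 117 and 116 CPM with Zn (-0.77, corrected -0.51). *Rps24*, the riser, was at 263 and 251 CPM against 323 and 318 CPM (0.32, corrected 0.24). Many ribosomal protein genes have near-identical copies, so their counts are uncertain. Of 20 glycolysis genes none rose and 11 fell (55%), with a median of -0.43, and after the correction none was called and the median was -0.20. Of the 20, 5 were above 0 after the correction, against 8923 of 14864 among all genes. *Pfkl*, the liver form of phosphofructokinase, was at 201 and 238 CPM without metal, at 130 and 125 CPM with Zn and at 221 and 234 CPM with Cu (-0.78, corrected -0.51, corrected adjusted p = 0.0525). *Eno3*, the muscle enolase, was at 485 and 579 CPM against 376 and 366 CPM (-0.52, corrected -0.24).

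**Figure D5:**
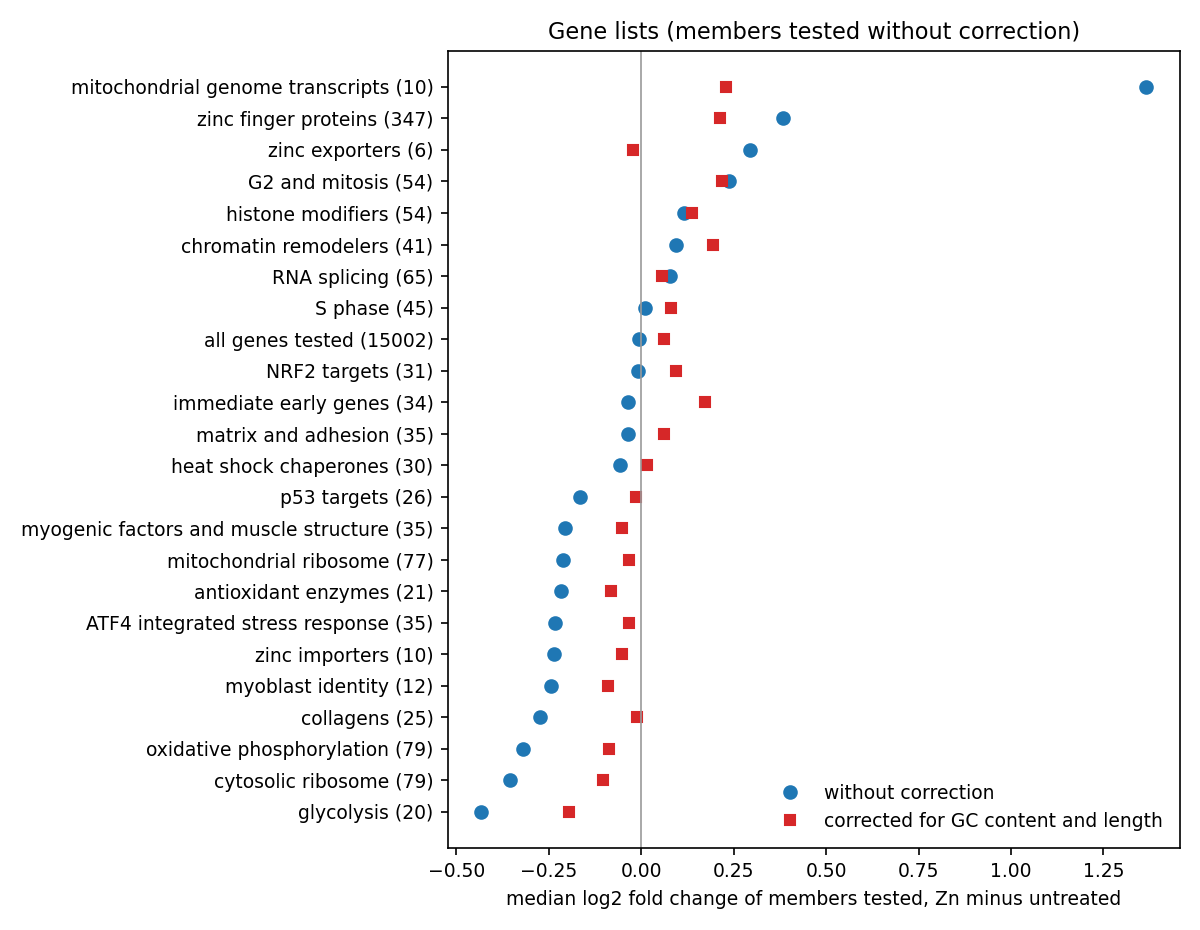
Median log2 fold change of Zn over untreated (x axis) over the tested members of 23 gene lists and over all genes, with (squares) and without (circles) correction for GC and length; the number tested without the correction is in parentheses. The median of mitochondrial genome transcripts goes from 1.37 to 0.23 and that of G2 and mitosis genes stays at 0.24 and 0.22.

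Zinc finger and chromatin genes were higher on balance. Of 347 zinc finger genes tested 104 rose (29.97%) and 5 fell, against 10.5% and 7.13% of all genes, with a median log2 fold change of 0.38, and after the correction 1 rose and the median was 0.21. *Zfp260* was at 23.7 and 19.4 CPM against 43.2 and 46.1 CPM (1.05, corrected 0.50, corrected adjusted p = 0.0518). Of 41 chromatin remodeller genes 7 rose and 1 fell, with medians of 0.09 and 0.19. *Pbrm1*, which encodes Baf180 itself, was at 139 and 94.4 CPM against 225 and 233 CPM (0.98, corrected 0.37, corrected adjusted p = 0.0929), and *Arid2*, another PBAF subunit, was at 138 and 122 CPM against 172 and 178 CPM (0.43, corrected 0.19). Both were named because they were among the risers called, and neither passed the correction. They do not stand for the other PBAF subunits. Of 54 histone modifier genes 9 rose and 2 fell (medians 0.12 and 0.14), and of 65 splicing genes 11 rose and 5 fell (medians 0.08 and 0.06). *Kdm6a*, a histone demethylase, rose by 0.80 (corrected 0.29), and *Tra2b*, a splicing regulator, by 0.95 (corrected 0.43, corrected adjusted p = 0.054).

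No gene of 5 stress programmes was called after the correction. Before it, 10.5% of all genes rose and 7.13% fell. Of 31 NRF2 targets 2 rose and 4 fell, of 21 antioxidant enzymes none rose and 4 fell (19.0%), and of 30 heat shock genes 4 rose and 1 fell. Of 35 ATF4 genes 2 rose and 7 fell (20%), and of 26 p53 targets 2 rose and 5 fell (19.2%). *Slc7a11*, the cystine transporter, was at 23.2 and 17.0 CPM without metal, at 44.6 and 38.8 CPM with Zn and at 34.4 and 43.1 CPM with Cu (1.06, corrected 0.29, corrected adjusted p = 0.183). *Gpx1*, a glutathione peroxidase, was at 77.0 and 93.9 CPM against 52.1 and 50.8 CPM (-0.73, corrected -0.38), and *Ddit3*, the stress factor CHOP, at 85.4 and 79.1 CPM against 57.3 and 53.6 CPM (-0.57, corrected -0.22). *Cdkn1a*, the p53 target p21, was at 311 and 376 CPM against 243 and 233 CPM (-0.53, corrected -0.25). The uncorrected medians of these 5 lists lay between -0.23 and -0.01 and the corrected ones between -0.08 and 0.09. Of 34 immediate early genes 2 rose and 5 fell, the median went from -0.04 to 0.17, and *Egr1* was the one called after the correction.

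Of 19 copper genes 1 rose and 3 fell, and of 20 iron and heme genes 3 rose and 1 fell, against 10.5% and 7.13% of all genes, with none called after the correction. *Ccs*, the copper chaperone of superoxide dismutase, was at 22.1 and 26.1 CPM against 15.4 and 14.2 CPM (-0.71, corrected -0.36), and *Lox*, a copper enzyme that cross-links collagen, was at 158 and 130 CPM against 223 and 212 CPM (0.59, corrected 0.26). Of 12 myoblast identity genes 3 rose and 5 fell, with a median of -0.24 (corrected -0.09). *Megf10*, a satellite cell receptor, was at 129 and 116 CPM against 173 and 170 CPM (0.49, corrected 0.42, corrected adjusted p = 0.0525), and *Itga7*, a laminin receptor, was at 911 and 1039.6 CPM against 681 and 677 CPM (-0.52, corrected -0.25). *Myf5*, a myogenic factor, was at 145 and 108 CPM against 197 and 180 CPM (0.58, corrected 0.07). Of 35 muscle structure genes 1 rose and 4 fell, with a median of -0.20 (corrected -0.05), among them *Actn3*, an actinin of the fast fibre Z line, at 354 and 377 CPM against 256 and 242 CPM. Of 25 sterol synthesis genes 3 rose and 1 fell (median -0.02, corrected 0.08), of 25 interferon response genes 1 rose and 4 fell (-0.15, corrected -0.0017), and of 44 Wnt, TGF-beta, Notch and IGF genes 1 rose and 3 fell (-0.08, corrected 0.07).

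MRE core matches were also counted in the windows of the other named genes. Of the 29 zinc genes and genes called in both fits, 20 had a RefSeq window and 9 of these held a match (45%), against 28.2% of 27025 genes with a window. Without the zinc genes, 4 of 11 held one (36.4%), namely *Cks2*, *Sgk1*, *Ciao1* and *Gtf2h5*, of which the first 2 rose and the others fell. A gene with several windows was counted where any of them held a match, also among all genes. *Sgk1* had 6 windows and matched only in window 6.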

How the data were processed

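RNA was depleted of ribosomal RNA with RNase H, and strand-specific libraries were sequenced. The authors aligned read pairs to mm10 with STAR, kept unique alignments and counted pairs per gene on the sense strand with featureCounts. The deposited values are these raw counts for 55291 symbols, not normalized, and none were columns of other samples. The 14 deposited tables of the authors' own comparisons, which hold fold changes and p-values, were not used.

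Counts of the 6 scr libraries were fitted in edgeR 4.0.16 (R 4.3.3) by the quasi-likelihood test after TMM scaling and filterByExpr, with 15002 genes tested and a Benjamini-Hochberg adjusted p under 0.05. Totals of 16520069 to 75179394 counts set the precision. SEs are the size of the log2 fold change divided by the root of F. The corrected fit used a spline (5 degrees of freedom) on GC content and log2 length of the GENCODE M21 transcript as an offset for each library. Values were matched for 53666 symbols, 374 of them through an older name in RefSeq's table of GRCm38.p6. Replicate numbers were not used as pairs. Samples were grouped by title. Scripts were tested on simulated data.

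Named genes were the zinc genes (the metallothioneins, *Mtf1*, *Slc30a1*, *Slc39a10* and other *Slc30* or *Slc39* genes called), the 12 largest rises and 12 largest falls among protein-coding genes called in both fits (no overlap of groups, mean normalized count 50 or more), the called ribosomal RNA features, and from each of 36 lists up to 2 called genes per direction by smallest p. The comparison, members and lists were chosen with earlier results of these data known. Alternatives were DESeq2 1.42.0, RLE factors, other filters, other sets of libraries, GC or length offsets, thinning, a minimum fold change of 1.5, replicate blocks and leaving out each library. Those added after seeing the data were the crossed block, the corrected fits without a library, and the fits without ribosomal or mitochondrial transcripts. Not every gene that the rule selects is named, and the result for 1 is not reported here.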

Additional observations from a re-analysis of the deposited data

Results flagged for a closer look

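Of the 5 core zinc genes with a test, 3 differed in their Zn response between scr and KD cells by the test of the difference itself (edgeR, 24 libraries, 16524 genes). The log2 response in scr minus that in *Baf180* KD was 1.01 for *Mt1* (adjusted p = 0.0049) and 1.58 for *Mt2* (adjusted p = 1.81e-04). Against *Baf250a* KD it was 1.29 for *Mt1* (adjusted p = 9.12e-04), 2.18 for *Mt2* (adjusted p = 1.65e-06) and 0.63 for *Slc30a1* (adjusted p = 0.0278). Against *Brd9* KD it was 1.19 for *Mt2* (adjusted p = 0.0184). For *Slc30a1* the Zn and untreated libraries of *Baf250a* KD overlapped. The same test called other zinc transporters, in the order *Baf180*, *Baf250a* and *Brd9* KD. The difference was 1.17, 1.33 and 0.92 for *Slc30a4*, -1.30, -1.63 and -0.93 for *Slc39a7*, and -0.80, -1.04 and -1.06 for *Slc39a11*. For *Slc30a7* it was 0.43 and 0.47 against *Baf180* and *Baf250a* KD. Of these, *Slc39a7* against *Baf180* KD (adjusted p = 0.0211) and *Baf250a* KD (adjusted p = 0.0018) and *Slc39a11* against *Baf250a* KD (adjusted p = 0.0244) were still called with the correction for GC and length. Differences were called for 11.1% to 30.5% of all genes in these contrasts, and for 0.0428% to 15.7% with the correction. Mean levels of *Mt1*, *Mt2*, *Slc30a1* and *Slc30a7* were higher in the untreated cells of every KD line than in untreated scr cells. Untreated *Slc39a7* was lower, at 27.8, 31.4 and 29.0 CPM in *Baf180*, *Baf250a* and *Brd9* KD against 45.3 CPM in scr. *Slc30a4* and *Slc39a11* were higher in some KD lines and lower in others. The part of the untreated level in the differences was not tested.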

How the results depend on the processing

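The count of 2645 calls became 4165 with the 4 compared libraries alone, 4968 with all 24 (42.1% of them higher, against 59.6%), 14 with a replicate block, 47 with the GC content and length offset, 19 with GC content alone, 31 with the offset and the block, 12 with a fold minimum of 1.5, and 5 to 4327 when 1 library was left out. With the offset it was 4 to 2553 when 1 library was left out (20 and 9 without untreated replicate 1 or 2, 4 and 5 without Zn replicate 1 or 2). All 14 calls of the block fit were among the 2645. Deviations of same-numbered libraries correlated at -0.43 (Cu and untreated), 0.42 (Cu and Zn) and -0.28 (untreated and Zn) over 11333 genes, so not every pair deviated together and the numbers were not used as pairs. A block with the Zn numbers crossed gave 12 calls and 24 with the offset. The 4 calls between Zn and Cu became 13 with the offset and 2 with the block. The difference between scr and *Brd9* KD in *Mt1* was 0.73 with the block (adjusted p = 0.0406), and that between scr and *Baf250a* KD in *Slc30a1* was 0.40 with the offset (adjusted p = 0.178). For *Slc30a7*, the difference from *Brd9* KD was 0.41 (adjusted p = 0.0529), 0.41 with the block (adjusted p = 0.0414) and 0.41 without *Baf250a* KD Zn replicate 2 (adjusted p = 0.0405). With the offset, calls were lost for *Slc30a4* (0.30, 0.36 and 0.25 against *Baf180*, *Baf250a* and *Brd9* KD), *Slc39a11* (-0.43 and -0.77 against *Baf180* and *Brd9* KD) and *Slc39a7* (-0.58 against *Brd9* KD), and *Slc30a7* reversed (-0.24 and -0.28 against *Baf180* and *Baf250a* KD). The block changed no further call among these differences.

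Over the named genes called and all alternatives, 1413 values kept direction and call, 1143 kept direction and missed the threshold, and 14 reversed. *Slc30a7* reversed in every fit with the offset for GC content and length, at -0.10, -0.11 with the block, -0.10 with the crossed block and, without 1 library, at -0.17 and -0.036 (untreated), -0.16 and -0.059 (Zn) and -0.10 and -0.11 (Cu). *Ect2* was at -0.034 and -0.0013 with the offset without Zn or untreated replicate 1, *Myf5* at -0.016 and -0.017 without untreated replicate 2 or Zn replicate 1, and *Lamb2* at 0.013 with GC content alone. The cause was not tested. With 2 libraries a group, a change below that of the called genes may be missed.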
